A study of Mus musculus with 52 samples.

Results

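The collagen genes described here are the protein-coding genes whose symbol reads Col, a number, the letter a and a number. This rule found 44 genes among 21885 protein-coding genes and 49585 genes in all whose transcripts could be summed. Their RNA was measured in 40 mouse libraries, and 12 ATAC-seq libraries gave the accessible chromatin at the same genes. The 52 samples form 26 groups of 2 replicates, and all animals are labelled as adult males.

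The study asked how beta-catenin stabilization changes endothelial cells (ECs) of vascular beds with and without a blood-brain barrier (BBB). In the sorted set, WT mice carried Tie2-GFP, a reporter under the Tie2 promoter that labels ECs. Beta-catenin stabilized mice carried Tie2-GFP, Pdgfb-CreER and Ctnnb1flex3 (BcatEx3fl), an allele from which Cre removes exon 3 in ECs so that the protein escapes degradation. They received 100 µg of 4-hydroxytamoxifen (4HT) at day 10 after birth. GFP-positive cells (ECs) and GFP-negative cells of the surrounding tissue were collected by FACS from cerebellum and from each pituitary lobe, anterior and posterior, which gave 24 RNA-seq libraries. The pituitaries of 20 to 30 mice aged 30 to 90 days were pooled for each replicate, and both lobes of these mice were collected, so the anterior and posterior libraries of one genotype are not from independent animals. In the RiboTag set, both genotypes carried RiboTag, a ribosomal protein that Cre tags, and Pdgfb-CreER, and both received 4HT, while the stabilized mice also carried BcatEx3fl. Tagged polyribosomes (bound) and an aliquot of the same homogenate (input) came from the cerebral cortex and the choroid plexus at 6 to 8 weeks of age, in 16 libraries, and the choroid plexi of 3 to 4 animals were pooled. The sorted WT mice lack the Cre transgene and 4HT, so the effects of these and of stabilized beta-catenin on the sorted ECs cannot be told apart. A count per gene does not show the loss of a single exon, so the recombination itself was not checked.

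Of the stabilized anterior pituitary EC libraries, replicate 2 is named for the anterior pituitary in its title and source, whereas its tissue tag names the posterior pituitary. It was kept with the anterior pituitary, and the calls that rest on it are also given without it. Among the anterior pituitary values described below that were not called, the log2 fold change of stabilized over WT ECs without it was -0.20 for Col4a1, -0.69 for Col13a1, -0.07 for Col15a1 and 1.59 for Col12a1. The sorted libraries held 12157485 to 37529274 estimated reads and the RiboTag libraries 6409013 to 21399125. Summed levels of 10 endothelial markers lay between 7106 and 17310 CPM, the normalised read count scaled to library size, in sorted ECs and between 18.2 and 124 CPM in GFP-negative cells. In the bound fractions the same sum was 1260 to 4452 CPM, against 60.3 to 336 CPM in input. Bound fractions also held other cells' RNA, since choroid plexus epithelial markers summed to 37750 and 38220 CPM in WT choroid plexus bound RNA and microglia and macrophage markers to 2097 to 2739 CPM in WT cortex bound RNA. Each group is a bulk sample, in which fewer cells of a type and less RNA per cell cannot be told apart. The replicates are separate samples by their labels, and p-values measure the spread between them.

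Collagens are extracellular or membrane proteins whose alpha chains wind into a triple helix. Type IV collagens form the sheet-like network of the basement membrane, on which ECs and pericytes rest, and the Col4a1 and Col4a2 chains are its most widespread components. The multiplexins, encoded by Col15a1 and Col18a1, lie in the basement membrane zone, and fragments cut from their ends (endostatin from Col18a1) are known to act on blood vessels. Fibrillar collagens such as Col1a1, Col1a2 and Col3a1 build the fibres of connective tissue and are made mainly by fibroblasts. The fibril-associated collagens, with interrupted helices, decorate these fibres (Col9a3, Col14a1). The short-chain collagens Col8a1 and Col8a2 form hexagonal lattices, the beaded filament and anchoring group holds Col6 chains and Col7a1, and the membrane-spanning group (Col13a1, Col17a1, Col23a1, Col25a1) stays at the cell surface. By these classes the 44 genes comprise 11 fibrillar, 6 basement membrane network, 2 multiplexin, 9 beaded filament and anchoring, 3 short-chain, 9 fibril-associated and 4 membrane-spanning genes. Beta-catenin is the effector of canonical Wnt signaling, which induces and maintains the BBB in brain ECs and is low in the fenestrated vessels of the pituitary and choroid plexus.

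Collagen RNA was dominated by Col4a1 and Col4a2 in every sorted EC library. Of all collagen CPM, they made up 87.0% and 93.9% in the WT libraries of cerebellum, 78.5% and 79.0% in those of the anterior lobe and 87.1% and 91.0% in those of the posterior lobe. In GFP-negative cells the share was 5.54% to 31.7%. The bound RNA of WT cortex stood at 70.4% and 53.4%. In WT choroid plexus bound RNA it was 23.0% and 29.2%, and short-chain and fibril-associated collagens took up much of the remainder. Per kilobase of the longest coding transcript, the leading genes in WT cerebellum ECs were Col4a1 at 240.6 ± 119.7 CPM per kb (SD, n = 2) and Col4a2 at 211.1 ± 91.2, followed by Col14a1 at 7.31 ± 6.29 and Col18a1 at 6.09 ± 1.15. In WT anterior pituitary ECs, Col4a1 at 364.3 ± 85.6 and Col4a2 at 246.8 ± 66.2 CPM per kb were followed by Col15a1 at 108.2 ± 27.3 and Col13a1 at 89.9 ± 21.3. The first 4 places were the same in WT posterior pituitary ECs. In the deposited TPM, summed per gene, Col15a1 at 298.6 stood above Col4a2 at 280.0 in WT anterior pituitary ECs, and Col3a1 was in the third place in WT cerebellum ECs at 13.2, so the order depends on the scale. Col4a1 and Col4a2 differed by less than their SD in cerebellum and posterior pituitary ECs and by more in anterior pituitary ECs, and Col15a1 and Col13a1 by less in the anterior lobe. In the posterior lobe Col15a1 at 101.7 ± 40.3 and Col13a1 at 87.5 ± 11.9 CPM per kb differed by less than the SD of the former and more than that of the latter. The TPM of Col4a1 needs care as a level, because 72.9% to 88.9% of it was assigned to annotated transcripts shorter than 50% of the longest coding one.

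**Figure D1:**
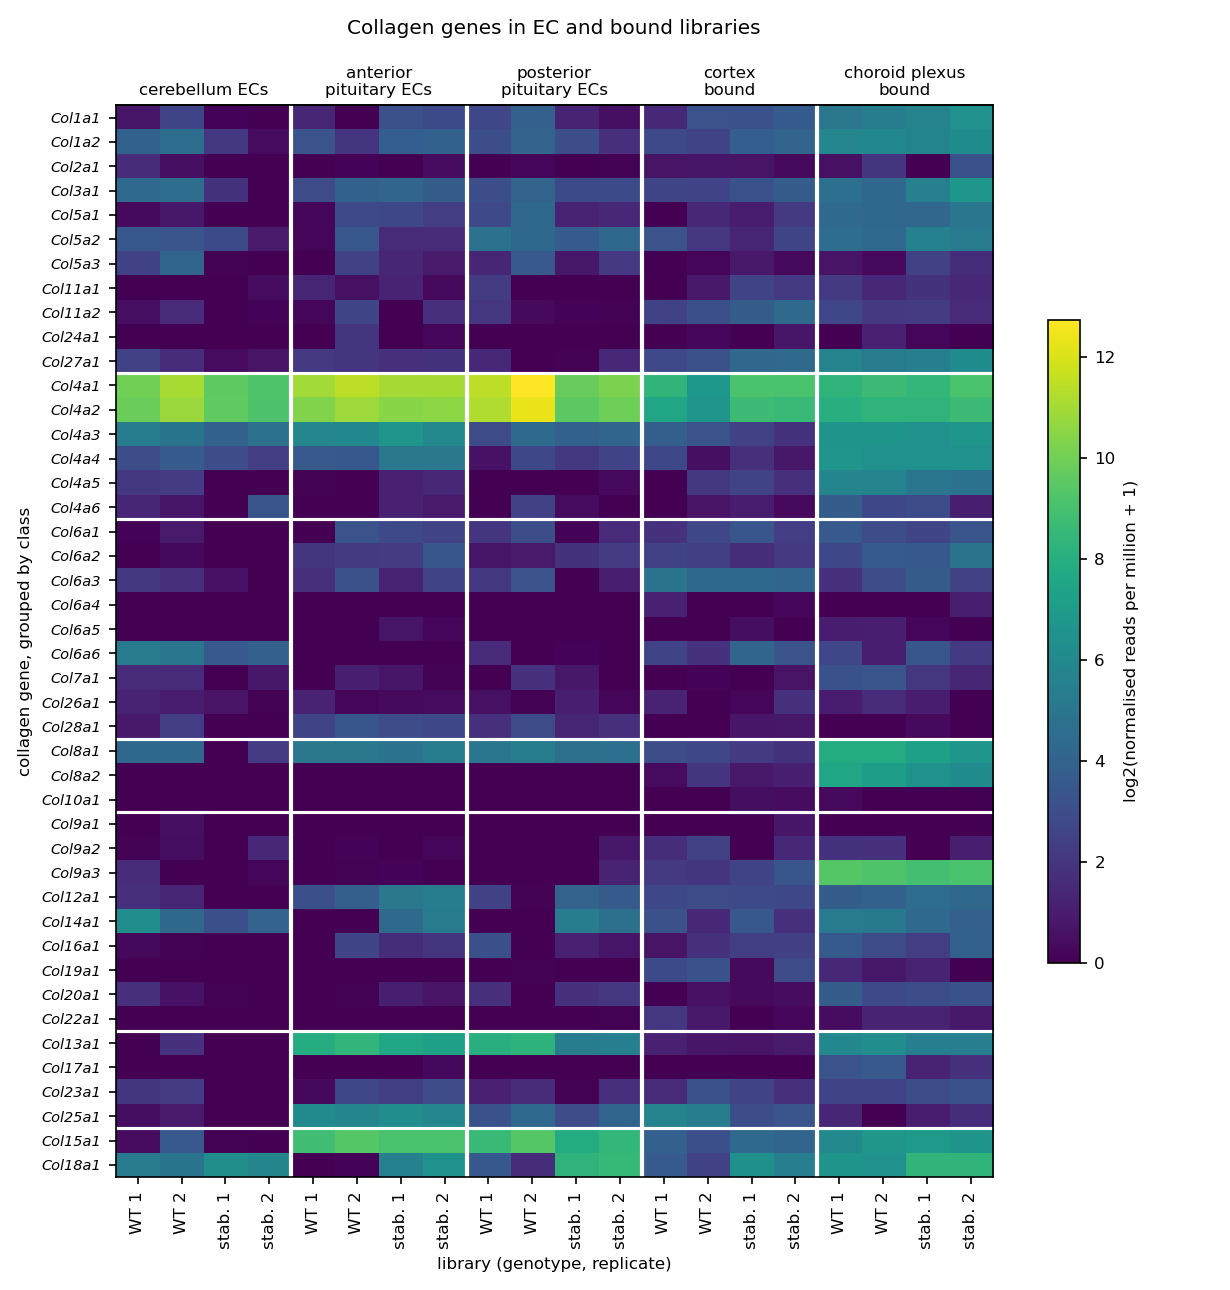
Level of the 44 collagen genes, grouped by class, in the 20 libraries of sorted ECs and RiboTag bound RNA, as log2 of normalised CPM plus 1 (colour). Col4a1 and Col4a2 are high in every column, Col13a1 and Col15a1 in pituitary ECs and choroid plexus, and Col8a1, Col8a2 and Col9a3 in choroid plexus.

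**Figure D2:**
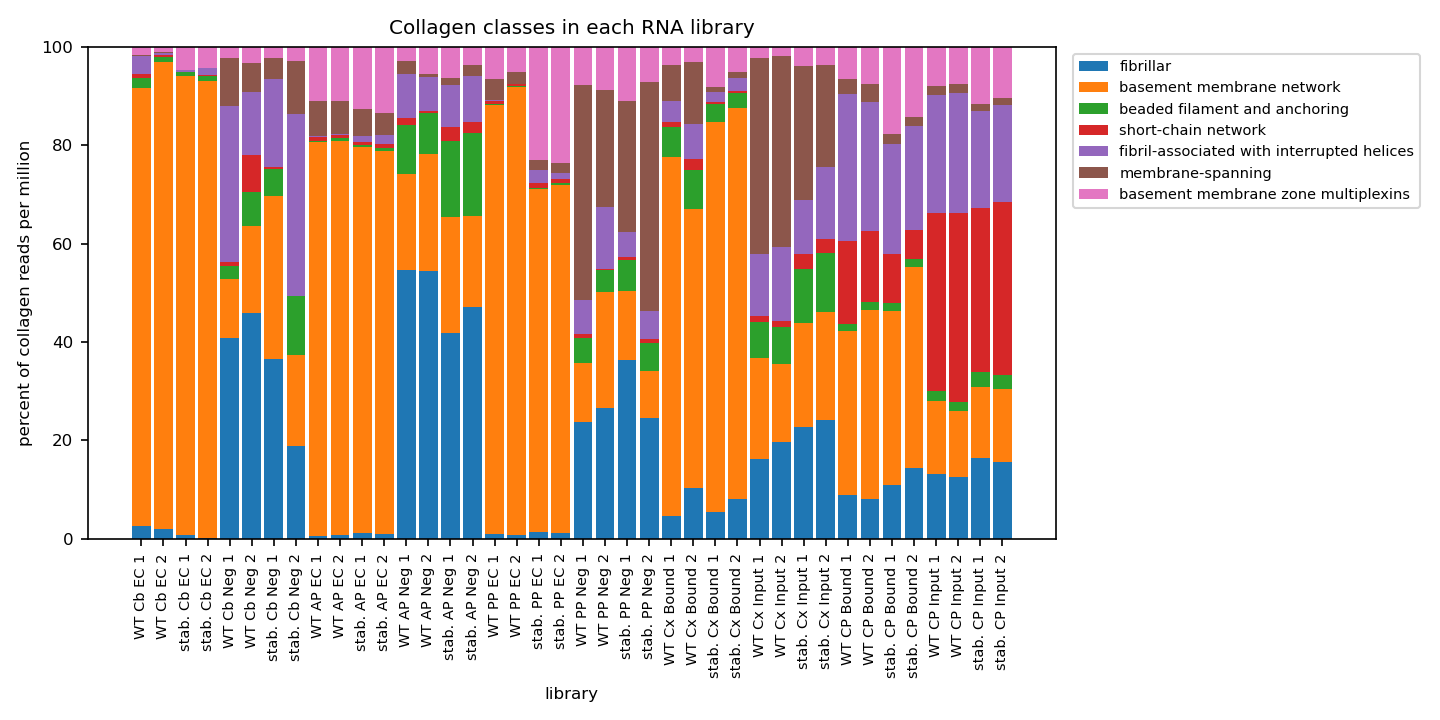
Share of the summed collagen CPM taken by each of the 7 classes in each of the 40 RNA libraries, as stacked bars in percent. The basement membrane network fills most of the bars of sorted ECs, with Col4a1 and Col4a2 alone at 69.0% to 93.9%, and a smaller part of those of GFP-negative cells and choroid plexus input.

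To ask which collagens belong to ECs, WT ECs were compared with WT GFP-negative cells of the same tissue. Of 42 collagen genes tested, ECs of cerebellum had 2 called higher and 6 called lower. Those of the anterior lobe had 7 in each direction, and those of the posterior lobe 2 above and 5 below, where called means an adjusted p under 0.05 in edgeR and at least a 2-fold difference. DESeq2 called more collagens in cerebellum and posterior pituitary, as given under the dependence on processing. Over all genes tested, 4.46% were called higher and 6.89% lower in cerebellum, 5.46% and 5.87% in anterior pituitary, and 7.07% and 7.45% in posterior pituitary. The median log2 fold change of the collagen genes was -2.11, -1.80 and -1.95 in the same order, against -0.12, -0.03 and 0.00 over all genes. Most collagens were thus listed at higher levels outside ECs.

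The chains higher in ECs of all these tissues were Col4a1 and Col4a2. Col4a1 measured 1032 and 2152 CPM in WT cerebellum ECs against 42.5 and 89.1 CPM in GFP-negative cells, higher by 4.6 ± 0.69 on the log2 scale (SE, adjusted p = 0.000196). In the anterior pituitary the ECs held 2010 and 2810 CPM of Col4a1 against 52.8 and 52.2 CPM, a log2 difference of 5.52 ± 0.72 (adjusted p = 4.98e-05). The posterior pituitary showed 2865 and 6822 CPM in ECs against 53.4 and 45.7 CPM, a log2 difference of 6.61 ± 0.75 (adjusted p = 7.61e-06). Col4a2 followed with log2 differences of 4.48, 5.22 and 6.56 in these tissues. Both libraries of ECs lay above both GFP-negative libraries in each case. Anterior pituitary ECs were also higher in Col4a3 (4.34), Col13a1 (5.39), Col15a1 (5.41), Col23a1 (5.33) and Col25a1 (5.66). Of these, Col4a3 and Col23a1 kept the call in 1 of the 4 fits that left out a library and Col15a1 in 3, and Col23a1, with 7 and 184 counts in ECs, fell to 1.65 without EC replicate 2. With gene length as an offset Col4a3 (5.37), Col15a1 (4.77) and Col23a1 (5.51) were no longer called. Mural markers were also higher in the sorted ECs, at 3509 and 3230 CPM against 821.6 and 574.2 CPM in cerebellum, 807 and 926.3 against 177.6 and 141.3 CPM in the anterior and 574.8 and 552.3 against 48.5 and 20.5 CPM in the posterior pituitary, and their part was not tested.

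Of the 11 fibrillar genes, 3 were called lower in cerebellum ECs, 2 in anterior and 0 in posterior pituitary ECs. Col1a1 stood at 0.673 and 5.27 CPM in WT cerebellum ECs and at 53.1 and 108 CPM in GFP-negative cells, and fell by 4.76 ± 1.41 on the log2 scale (adjusted p = 0.0334). Col1a2 was lower in the ECs of cerebellum (-2.77) and anterior pituitary (-4.92), and Col1a1 also in the anterior pituitary (-5.33). In cerebellum Col1a1 kept its call in 2 of 4 fits without a library (-6.84 to -3.84) and Col1a2 in 1 of 4 (-3.10 to -2.21), and the anterior value of Col1a1 ranged from -12.73 to -4.19. Several genes were at or near 0 counts in ECs. Col8a2 had 0 counts in both WT cerebellum EC libraries and was at least 417.0-fold higher in GFP-negative cells, taking the 3 counts a reading of 0 allows over the group. This gene's GFP-negative libraries stood at 4.74 and 37.3 CPM, and the library with 37.3 CPM also held 7844 CPM of choroid plexus epithelial markers against 8.53 CPM in its replicate. The part of that difference in the result was not tested. Col11a1 (at least 102.7-fold), Col6a2 and Col9a2 completed the list in cerebellum. In anterior pituitary ECs, Col14a1, Col4a6 and Col6a6 had 0 counts in both libraries and were at least 484.6-fold, 142.0-fold and 100.4-fold higher in GFP-negative cells, and Col4a5 and Col18a1 had 2 and 4 counts in all. In posterior pituitary ECs, Col4a5, Col9a2 and Col9a3 had 0 counts and were at least 231.8-fold, 80.9-fold and 152.4-fold higher in GFP-negative cells. Col23a1 (-4.55) and Col25a1 (-3.58) were lower there too. The GFP-negative libraries of this lobe were unequal, with 89 and 705 counts of Col4a5, 54 and 223 of Col9a2 and 166 and 356 of Col9a3. With the preparation as a block, Col8a2, Col9a2 and Col11a1 in cerebellum (-11.75, -8.13 and -10.06), Col4a5, Col4a6, Col6a6 and Col23a1 in the anterior (-6.55, -10.43, -9.88 and 4.01) and Col9a2 and Col23a1 in the posterior pituitary (-9.85 and -4.18) were no longer called. The gene length offset ended the calls of Col1a1 (-4.06), Col1a2 (-2.62), Col8a2, Col9a2 and Col11a1 in cerebellum and of Col1a1 (-5.14), Col1a2 (-3.43), Col4a5, Col4a6 and Col6a6 among the lower genes of the anterior pituitary. Of the fits without a library, Col8a2, Col9a2 and Col11a1 in cerebellum, Col4a5 and Col6a6 in the anterior and Col9a2 and Col23a1 in the posterior pituitary kept the call in 1 of 4, Col9a3 in the posterior lobe in 2 and Col4a6 in 0. Fibroblast markers summed to 207.4 and 642.3 CPM in GFP-negative cells against 45.8 and 52.8 CPM in ECs of cerebellum and to 226.8 and 205.4 against 32.2 and 31.8 CPM in the anterior pituitary, and their part was not tested. Fewer collagens were called without single libraries, 3 in cerebellum without WT EC replicate 1, 9 in the anterior pituitary without EC replicate 2 or GFP-negative replicate 2, and 4 in the posterior pituitary without EC replicate 2. Col25a1, known from neurons, was the leading collagen per kilobase of WT posterior pituitary GFP-negative cells at 24.7 ± 7.07 CPM per kb, with 199 and 132 CPM against 8.33 and 19.3 CPM in the ECs. In TPM, Col4a1 (38.4) and Col3a1 (38.1) stood above Col25a1 (35.2) in these cells. Neuronal markers summed to 1213 and 1065 CPM in these cells against 27.8 and 26.8 CPM in posterior pituitary ECs. Pituitary endocrine markers stood at 89950 and 60000 CPM against 2336 and 433.7 CPM, and the part of both was not tested.

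The same question was asked of the RiboTag set by comparing bound with input RNA in WT tissue. Of 40 collagen genes tested, 9 were called enriched and 2 depleted in cortex (7.46% and 4.18% of all genes), and 7 enriched and 1 depleted in choroid plexus (8.67% and 6.64%). In cortex, Col4a1 rose from 24.9 and 14.7 CPM in input to 324 and 111 CPM in bound RNA, a log2 difference of 3.46 ± 0.44 (adjusted p = 0.000127). The best separated member was Col4a3, at 13.7 and 8.6 CPM bound against 0.253 and 0.342 CPM in input (5.17 ± 0.38, adjusted p = 1.67e-06). Col4a2 (2.11), Col6a3 (2.69), Col6a6 (4.32), Col8a1 (1.65), Col14a1 (2.70), Col15a1 (2.21) and Col27a1 (2.13) were enriched as well, while Col1a2 (-1.38) and Col9a3 (-1.23) were depleted. Without a library, Col14a1 (1.48 to 3.79) and Col9a3 (-1.18 to -0.71) kept the call in 1 of 4 fits and Col1a2 (-1.31 to -0.80) and Col6a6 (4.01 to 5.07) in 2 of 4. The gene length offset ended the calls of Col6a3 (2.52), Col1a2 (-0.71) and Col9a3 (-0.62). All genes shifted by a median of -0.33 in this comparison. Over the fits without a library, Col4a1 ranged from 2.71 to 4.40, Col4a2 from 1.83 to 2.84 and Col15a1 from 1.92 to 3.01. Microglia and macrophage markers rose along with the endothelial ones in cortex, from 135.7 and 117.7 CPM in input to 2739 and 2097 CPM in bound RNA, and their part was not tested. In choroid plexus the enriched collagens were Col4a1 (2.11), Col4a2 (2.31), Col7a1 (5.48), Col11a2 (1.86), Col13a1 (2.74), Col15a1 (2.35) and Col27a1 (2.75), and the depleted one was Col23a1 (-1.80). Col7a1 and Col23a1 kept the call in 0 of 4 fits without a library and Col11a2 in 1 of 4. Bound and input share a homogenate, and with the preparation as a block Col7a1 (5.50) and Col11a2 (1.82) were no longer called. The gene length offset ended the calls of these genes and of Col4a1 (1.75) and Col23a1 (-2.13). Macrophage and microglia markers summed to 35 and 41.4 CPM in the input and 233.7 and 303.5 CPM in the bound RNA of choroid plexus, and their part was not tested. In cortex 19 genes were called without bound replicate 2 and 7 without input replicate 2. In CPM the short-chain collagens stood higher in the input of choroid plexus without a call, with Col8a1 at 355 and 434 CPM against 230 and 228 CPM bound and Col8a2 at 353 and 379 CPM against 186 and 139 CPM. In TPM, Col8a1 stood at 21.5 ± 2.83 in input and 23.0 ± 0.62 in bound RNA (SD), and Col8a2 at 25.3 ± 1.65 and 18.6 ± 2.84.

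WT ECs of different beds were then compared with each other. Between anterior pituitary and cerebellum 3 of 35 collagen genes were called higher and 3 lower (2.26% and 3% of all genes), between posterior pituitary and cerebellum 3 higher and 2 lower (2.1% and 2.3%), and between anterior and posterior pituitary 0 higher and 1 lower (0.34% and 0.653%). Called in both lobes against cerebellum were Col13a1, Col15a1 and Col25a1, which were higher, and Col14a1 and Col18a1, which were lower. Col13a1, a membrane-spanning collagen of cell adhesion sites, measured 0 and 2.58 CPM in cerebellum ECs, 237 and 332 CPM in anterior pituitary ECs and 250 and 303 CPM in posterior pituitary ECs. The log2 differences from cerebellum were 7.81 ± 1.2 (adjusted p = 0.00196) and 7.78 ± 1.2 (adjusted p = 0.00254). Col15a1 stood at 0.308 and 10.6 CPM in cerebellum ECs, at 460 and 660 CPM in anterior pituitary ECs and at 379 and 673 CPM in posterior pituitary ECs, with log2 differences of 6.67 ± 1.12 and 6.59 ± 1.12. Cerebellum replicate 2 held most of the cerebellum reads of both genes, and without it the differences were 15.93 and 15.9 for Col13a1, fitted against 0 counts, and 10.82 and 10.74 for Col15a1. Col25a1 was also higher, by 6.50 ± 0.76 in the anterior and 4.40 ± 0.70 in the posterior pituitary. The posterior difference of Col25a1 lost its call when gene length was added as an offset, at 2.79.

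Other collagens went the opposite way. Col14a1, a fibril-associated collagen, had 75.9 and 18.5 CPM in WT cerebellum ECs and 0 counts in all 4 WT pituitary EC libraries. It was at least 1147-fold higher in cerebellum than in anterior and at least 859.2-fold higher than in posterior pituitary ECs. Of the 3210 cerebellum counts behind these limits, replicate 1 held 2708 and replicate 2 held 502. Col18a1, the endostatin precursor, measured 38.6 and 29.5 CPM in cerebellum ECs, 10.2 and 2.05 CPM in posterior pituitary ECs and 0.029 and 0.0915 CPM in anterior pituitary ECs. From 2178 counts in cerebellum against 4 in anterior pituitary, the ratio was 583.6 with a 95% counting interval of 227.6 to 2144 (log2 difference -9.05 ± 0.88, adjusted p = 4.02e-05). Against cerebellum, the posterior pituitary was lower by a smaller margin (-2.44 ± 0.59, adjusted p = 0.0323), which an offset for gene length reduced to -1.33 and below the threshold and which was -4.05 without posterior replicate 1. The lobes themselves differed in Col18a1 (anterior over posterior -6.61 ± 0.85, adjusted p = 0.00185), at -7.53 to -5.00 in fits without a library. With each pool of mice as a block over both lobes, paired by replicate number, 2 collagens were called in place of 1, Col4a3 in addition to Col18a1. Col6a6 was at 36.6 and 31.1 CPM in cerebellum ECs and at 0 counts in anterior pituitary ECs. Mural markers summed to 3509 and 3230 CPM in WT cerebellum ECs against 552.3 to 926.3 CPM in those of the lobes. Pituitary endocrine markers stood at 5721 and 3260 CPM in anterior, 2336 and 433.7 CPM in posterior pituitary and 28.7 and 26.5 CPM in cerebellum ECs. Erythrocyte markers summed to 31810 and 4249 CPM in cerebellum ECs against 697.9 to 2016 CPM in those of the lobes. The part of these markers was not tested. The calls named here stood in each of their 4 fits without a library, and without posterior pituitary replicate 1 the counts rose to 9 against cerebellum and 4 between the lobes (3 without replicate 2).

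**Figure D3:**
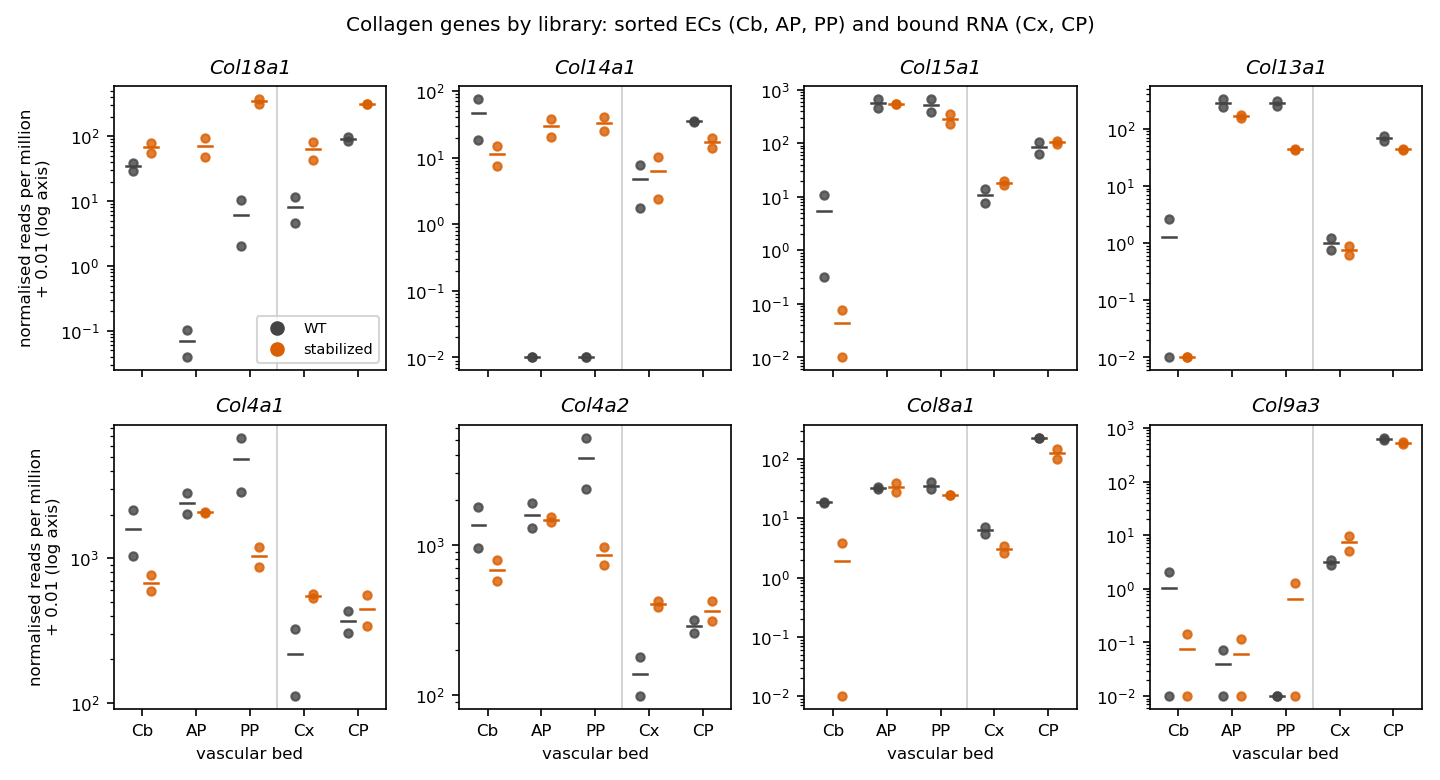
Normalised CPM of 8 collagen genes (log axis, 0.01 added) by vascular bed in sorted ECs and RiboTag bound RNA, WT in grey and beta-catenin stabilized in orange, with 1 point per library and a bar at the mean. Col18a1 and Col14a1 are higher in stabilized than in WT ECs of both pituitary lobes, with WT at 0 for Col14a1, and Col4a1 and Col4a2 drop in stabilized posterior pituitary ECs.

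Choroid plexus and cortex were compared in WT bound RNA. Of 38 collagen genes tested, 18 were called higher and 2 lower in choroid plexus (13.9% and 15.8% of all genes), with a median of 2.55 against -0.01 over all genes. The largest well-measured difference was that of Col9a3, a chain of the cartilage collagen IX, with 658 and 604 CPM against 3.43 and 2.76 CPM (log2 difference 7.62 ± 0.40, adjusted p = 9.43e-06). Col9a3 reached 411 and 452 CPM in the input of choroid plexus and had no call between bound and input there. Col8a1 was at 230 and 228 CPM against 7.08 and 5.47 CPM (5.14 ± 0.33), and Col8a2 at 186 and 139 CPM against 0.276 and 2.76 CPM (6.70 ± 0.74). Col13a1 (6.07), Col15a1 (2.91) and Col18a1 (3.44) were higher as well. Of the basement membrane chains, Col4a3 (3.03), Col4a4 (4.8) and Col4a5 (5.00) were higher. Fibrillar chains among the higher genes were Col1a1 (2.77), Col1a2 (3.38), Col3a1 (2.01), Col5a1 (4.49) and Col27a1 (2.62), and Col7a1 (7.21), Col14a1 (2.81) and Col20a1 (5.11) completed the group. With the gene length offset Col1a1 (1.69), Col3a1 (0.18), Col5a1 (4.41), Col15a1 (2.22) and Col20a1 (4.66) were no longer called, and without single libraries Col6a3 and Col7a1 were called in 2 of 4 fits and Col14a1 and Col20a1 in 3 of 4. Without cortex replicate 2 the log2 differences were 4.36 for Col1a1, 12.0 for Col4a5, 10.54 for Col5a1 and 9.5 for Col20a1. Without cortex replicate 1 they were 7.62 for Col4a4 and 4.34 for Col14a1, and without choroid plexus replicate 1 that of Col25a1 was -12.06. Over the fits without a library, Col8a2 ranged from 5.89 to 9.09, Col7a1 from 6.42 to 9.43, Col18a1 from 2.93 to 4.33 and Col6a3 from -3.20 to -1.81. Col17a1, a transmembrane collagen of epithelial anchoring, had 158 counts in choroid plexus and 0 in cortex, at least 127.7-fold. The genes lower in choroid plexus were Col6a3 (-2.45) and Col25a1 (-5.87), the latter at 50.4 and 40.1 CPM in cortex. Col4a1 itself, at 306 and 429 CPM in choroid plexus and 324 and 111 CPM in cortex, overlapped between the beds. Fibroblast markers summed to 2257 and 2106 CPM in choroid plexus bound RNA against 63.5 and 65.8 CPM in cortex, and to 3959 and 3230 CPM in choroid plexus input. With Ttr, Kl and Igf2 being prominent in these bound libraries, the part of epithelial and fibroblast RNA in the 18 higher genes was not tested.

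Stabilized ECs were compared with WT ECs in each bed. In the cerebellum 0 of 35 collagen genes were called higher and 1 lower (0.067% and 0.581% of all genes). In the anterior pituitary 2 were called higher and 0 lower (0.441% and 0.0167%), and in the posterior pituitary 2 higher and 2 lower (1.25% and 0.541%). In the bound RNA of cortex 4 of 38 were called higher and 1 lower (3.65% and 2.67%), while none was called in that of choroid plexus (0.656% and 0.197%), where edgeR gave 3 genes an unadjusted p under 0.05 and DESeq2 called 2. The genes called in both pituitary lobes were Col18a1 and Col14a1.

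**Figure D4:**
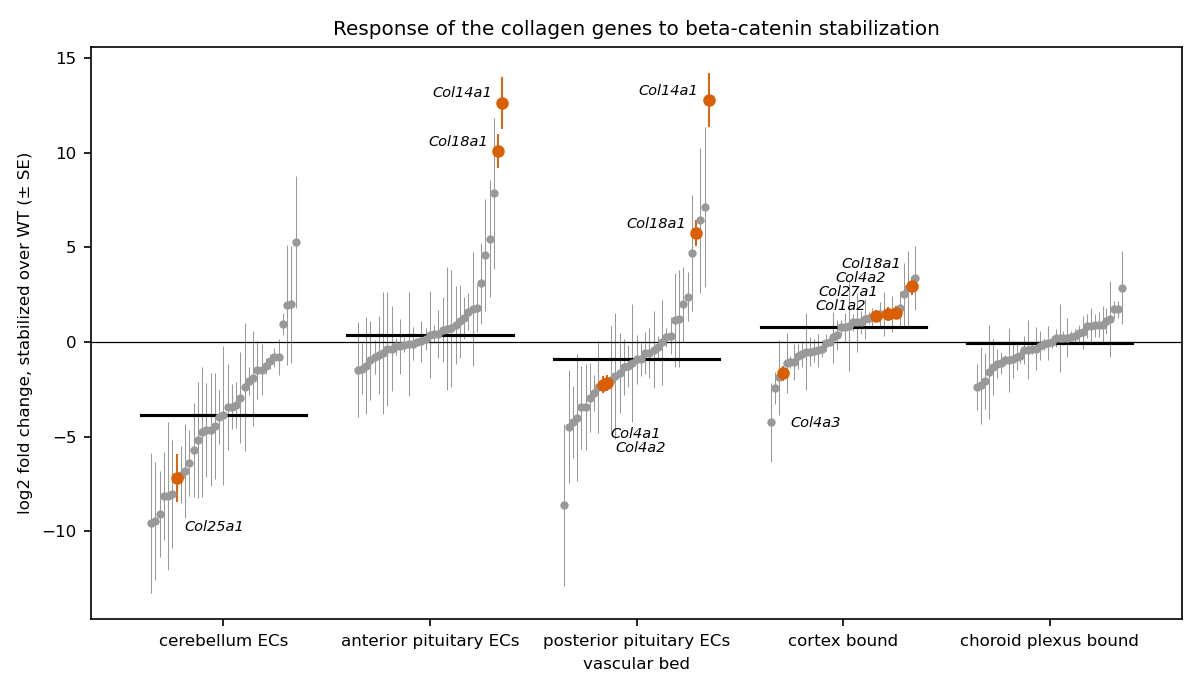
Log2 fold change of stabilized over WT, with its SE, for the collagen genes tested in each of the 5 beds, sorted from low to high. Called genes are orange and named, and a black line marks the median of the collagen genes, which is lowest in cerebellum ECs at -3.87.

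Col18a1 was called in more beds than any other collagen under stabilization. The WT anterior pituitary EC libraries held 1 and 3 counts of it, or 0.029 and 0.0915 CPM, whereas the stabilized ones held 1359 and 2259 counts, or 47.0 and 93.8 CPM. The ratio was 1150, with a 95% counting interval of 448.6 to 4221, and the fitted log2 fold change was 10.09 ± 0.90 (adjusted p = 0.000106). Without the library of conflicting labels it was 9.52 and still called. In posterior pituitary ECs the gene went from 10.2 and 2.05 CPM to 309 and 374 CPM, a rise of 5.76 ± 0.68 (adjusted p = 0.000771), and no library overlapped. The WT value rested on the replicate, since the log2 fold change was 7.38 without WT replicate 1 and 5.04 without WT replicate 2. Cortex bound RNA rose from 11.4 and 4.51 CPM to 82.5 and 43.2 CPM, by 2.98 ± 0.48 (adjusted p = 0.0093), and lost the call with an offset for gene length at 2.93. The cortex value ranged from 2.43 to 3.88 in fits without a library.

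Elsewhere Col18a1 was not called. It read 38.6 and 29.5 CPM in WT and 78.1 and 55.8 CPM in stabilized cerebellum ECs (0.96 ± 0.56, adjusted p = 0.555). Choroid plexus bound RNA stood at 95.6 and 84.7 CPM in WT and 318 and 317 CPM in stabilized mice (1.73 ± 0.45, adjusted p = 0.125), with no overlap between the genotypes, and the input of the same tissue at 139 and 140 CPM against 180 and 162 CPM (0.26, adjusted p = 0.763). In the bound RNA, endothelial markers went from 2333 and 3119 to 4452 and 3930 CPM and choroid plexus epithelial markers from 37750 and 38220 to 24870 and 21610 CPM, and their part was not tested. In GFP-negative cells of the anterior and posterior pituitary the log2 fold change was 0.29 and -0.18 (adjusted p = 1.0 for both). The responses of the lobes differed by -4.33 ± 1.03 (posterior minus anterior, adjusted p = 0.184) and those of choroid plexus and cortex by -1.25 ± 0.63 (adjusted p = 0.342), neither of which passed the threshold. The WT levels of the lobes, from which these folds are taken, differed as given above. The stabilized levels were 47.0 and 93.8 CPM in the anterior and 309 and 374 CPM in the posterior lobe. Slc19a1, which overlaps Col18a1 on the opposite strand, was measured at 0 to 1.2 CPM in the pituitary ECs. The libraries did not mark strand, so reads of the overlap cannot be assigned to either gene.

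Col14a1 appeared in stabilized pituitary ECs from 0 counts in WT. In the anterior lobe its counts rose from 0 in both WT libraries to 587 and 924 under stabilization, or 20.3 and 38.4 CPM, at least 640.1-fold higher (adjusted p = 0.00233). The posterior lobe went from 0 counts in both WT libraries to 825 and 541, or 40.7 and 25.0 CPM, at least 547.3-fold higher (adjusted p = 0.00141). Both calls stood in all 4 fits that left out a library, the one of conflicting labels included. The stabilized level lay within the range of WT cerebellum ECs, 75.9 and 18.5 CPM, where stabilized ECs read 7.57 and 15.1 CPM (-2.06 ± 0.75, adjusted p = 0.395). Col14a1 was measured at 24.7 and 18.4 CPM in WT GFP-negative cells of the anterior pituitary and 34.6 and 9.84 CPM in stabilized ones, and at 2.28 and 0 CPM against 3.76 and 1.38 CPM in the posterior pituitary. The antisense gene across it, 1700040F17Rik, had 0 counts in these libraries. In the RiboTag set the gene did not pass the threshold, with 35.8 and 34.6 CPM against 19.8 and 14.1 CPM in choroid plexus and 7.79 and 1.75 CPM against 10.1 and 2.42 CPM in cortex bound RNA.

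Other cells' markers changed in the same sorted pituitary libraries. Microglia and macrophage markers summed to 5.31 and 5.45 CPM in WT and 256.8 and 204.1 CPM in stabilized posterior pituitary ECs, and to 123.0 and 125.8 against 244.3 and 365.7 CPM in the anterior lobe. Fibroblast markers stood at 84.1 and 88.8 CPM against 38.7 and 54.6 CPM in posterior pituitary ECs and at 32.2 and 31.8 against 82.8 and 46.3 CPM in the anterior lobe. The choroid plexus epithelial list went from 57.6 and 74.4 CPM to 1758 and 2195 CPM in the posterior lobe, almost all of it the water channel Aqp1 (1719 and 2144 CPM), while Ttr, its defining marker, stayed at 0.0493 and 1.89 CPM. In the anterior lobe this list went from 4.58 and 4.36 CPM to 205.4 and 368.5 CPM. The summed endothelial markers were 14610 and 17310 CPM in WT and 7106 and 8502 CPM in stabilized posterior pituitary ECs. Mural markers stood at 574.8 and 552.3 CPM in WT and 385.5 and 303.3 CPM in stabilized posterior pituitary ECs. In the anterior lobe they went the other way, from 807.0 and 926.3 CPM in WT to 1106 and 1024 CPM in stabilized ECs. Whether these shifts take part in the collagen results was not tested.

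The basement membrane chains Col4a1 and Col4a2 fell in stabilized posterior pituitary ECs. Col4a1 measured 2865 and 6822 CPM in WT and 874 and 1190 CPM in stabilized ECs, a fall by 2.25 ± 0.45 on the log2 scale (adjusted p = 0.028). Col4a2 went from 2356 and 5199 CPM to 734 and 969 CPM and fell by 2.17 ± 0.43 (adjusted p = 0.0252). Neither gene overlapped between the genotypes, but both calls were lost without WT replicate 2 (-1.50 for both) and without stabilized replicate 1 (-2.05 for Col4a1 and -1.99 for Col4a2), and that of Col4a2 also with the gene length offset (-2.22). Their joint share of the collagen CPM dropped from 87.1% and 91.0% to 69.0% and 70.1%. In anterior pituitary ECs the levels of Col4a1 were 2010 and 2810 CPM in WT and 2092 and 2050 CPM in stabilized ECs (-0.23 ± 0.43, adjusted p = 1.0). The lobes' responses differed by -2.02 ± 0.62 for Col4a1 and -2.05 ± 0.58 for Col4a2 (adjusted p = 0.331 and 0.29). Cerebellum ECs read 1032 and 2152 CPM of Col4a1 in WT and 760 and 593 CPM in stabilized mice (-1.26 ± 0.44, adjusted p = 0.35).

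In CPM, cortex bound RNA moved in the opposite direction. Col4a2 rose from 178 and 97.7 CPM to 422 and 385 CPM, by 1.56 ± 0.34 (adjusted p = 0.0291), while Col4a1 at 324 and 111 CPM against 565 and 532 CPM did not pass (1.33 ± 0.48, adjusted p = 0.14). In TPM, Col4a2 stood at 65.9 ± 51.4 in WT and 72.3 ± 5.04 in stabilized bound RNA (SD). Col4a1 stood at 170.1 ± 113.6 and 205.5 ± 11.9 TPM. Both TPM differences were smaller than the WT SD, so the rise depends on the scale. The call of Col4a2 was lost without stabilized replicate 1 (1.47), without stabilized replicate 2 (1.66) and with the gene length offset (1.16). The summed endothelial markers of these libraries were 2649 and 1260 CPM in WT and 3989 and 4096 CPM in stabilized cortex, and neuronal markers 1789 and 2372 against 933.5 and 885.4 CPM, whose part in the result was not tested. Col4a3 fell there by 1.65 ± 0.38 (13.7 and 8.6 CPM to 4.50 and 2.59 CPM, adjusted p = 0.0343), and lost the call at -1.21 without WT replicate 1, at -1.25 without stabilized replicate 2 and at -1.73 with the length offset. Of the fibrillar chains Col1a2 rose by 1.39 ± 0.31 from 5.92 and 5.2 CPM to 12.9 and 15.8 CPM (adjusted p = 0.0314). It was called in 1 of 4 fits without a library, at 1.26 without WT replicate 2, 1.49 without stabilized replicate 1 and 1.27 without stabilized replicate 2 among the others. Col27a1 was called at 1.47 ± 0.37 (adjusted p = 0.0464), in 0 of 4 such fits (1.34 to 1.63), and turned to -0.16 with the length offset. The pair Col4a1 and Col4a2 in choroid plexus bound RNA showed 306 and 429 CPM against 341 and 557 CPM and 259 and 313 CPM against 309 and 419 CPM, with overlap in both.

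In stabilized cerebellum ECs the call was Col25a1, with 14 and 25 counts in WT and 0 in both stabilized libraries, at least 10.7-fold lower (adjusted p = 0.0311). Most of the remaining collagens leaned the same way without passing. The median log2 fold change was -3.87 against -0.08 over all genes, 4 genes lay above and 31 below 0, and 28 of 35 did not overlap between genotypes, where 35.2% of all genes did not. At an unadjusted p under 0.05 there were 16, and DESeq2 called 11. Leaving out WT replicate 1, stabilized replicate 1 or stabilized replicate 2 gave 4, 5 and 2 calls. Several of the lower genes read 0 counts in a stabilized library, also where WT was not low, as for Col8a1 with 674 and 498 counts. Col15a1 went from 0.308 and 10.6 CPM to 0.0685 and 0 CPM (-7.01 ± 1.51, adjusted p = 0.0641), and Col8a1 from 18.9 and 18.4 CPM to 0 and 3.78 CPM (-3.33 ± 1.2, adjusted p = 0.371). Fibroblast markers moved along, from 45.8 and 52.8 CPM to 3.5 and 8.01 CPM, as did mural markers, from 3509 and 3230 CPM to 2436 and 2305 CPM. Their part in the collagen values was not tested. GFP-negative cells of the cerebellum showed the same lean, with 0 of 42 called higher and 5 lower (0.133% and 0.627% of all genes) and a median of -2.55 against -0.26. The 5 genes were Col1a2 (-2.53), Col3a1 (-5.00), Col6a1 (-5.75), Col13a1 (193 and 154 counts to 0, at least 51.4-fold) and Col25a1 (-6.66). Col3a1 stood at 47.3 and 132 CPM in WT and 2.27 and 3.57 CPM in stabilized mice. It kept its call in 4 of 4 fits without a library and lost it with the gene length offset (-4.22), as did Col1a2 (-2.02). Col13a1 kept it in 3 of 4 such fits and Col1a2, Col6a1 and Col25a1 in 2 of 4. Without WT replicate 2 Col6a1 (-3.74) and Col25a1 (-4.31) were not called, and Col6a1 reached -11.94 without stabilized replicate 1. Both also lost the call with RLE normalization (-5.63 and -6.54). Neuronal markers summed to 766.5 and 894.5 CPM in WT and 2469 and 4177 CPM in stabilized libraries, and those of astrocytes and pituicytes were 14760 and 6844 CPM in WT against 8009 and 4213 CPM, whose part was not tested. Without WT replicate 2, which held the choroid plexus markers, 2 genes were called, and 8, 11 and 3 without WT replicate 1 and stabilized replicates 1 and 2.

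The membrane-spanning Col13a1 was lower in stabilized posterior pituitary ECs without passing the threshold, at 250 and 303 CPM in WT against 41.8 and 44.9 CPM (-2.70 ± 0.94, adjusted p = 0.22). It stood at 237 and 332 CPM against 176 and 154 CPM in the anterior lobe (-0.79, adjusted p = 0.941) and at 60.7 and 75.8 CPM against 43.9 and 42.9 CPM in choroid plexus bound RNA (-0.74, adjusted p = 0.377). Col15a1 stood at 460 and 660 CPM in WT and 535 and 536 CPM in stabilized anterior pituitary ECs (-0.08). In the posterior lobe both stabilized libraries, at 225 and 350 CPM, lay below both WT ones at 379 and 673 CPM (-0.90), and neither difference passed the threshold. In the input of choroid plexus it was the 1 collagen of 37 called higher, with 0 lower (0.0995% and 0.00622% of all genes), from 16 and 17 CPM to 75.9 and 57.6 CPM (1.98 ± 0.24, adjusted p = 0.0486). This call stood in 0 of 4 fits without a library, at 1.80 to 2.14. Mural markers summed to 235.0 and 244.5 CPM in WT and 560.0 and 406.0 CPM in stabilized input of choroid plexus, and their part was not tested. The bound RNA of the same tissue read 62.5 and 106 CPM of Col15a1 against 112 and 96.7 CPM. In the input of cortex 3 of 37 were called higher, Col6a2 (1.03), Col8a1 (1.24) and Col17a1 (0 against 8 counts, at least 5.41-fold), and 1 lower, Col25a1 (-1.28), where 8.44% and 3.38% of all genes were called. In mean TPM, Col6a2 (0.850 in WT, 0.721 in stabilized input) and Col8a1 (0.271 and 0.266) were not higher. Col17a1 (0 and 0.0374) and Col25a1 (25.0 and 2.33) kept their direction. Summed collagen TPM in this input fell from 101.9 and 91.25 to 19.4 and 18.5. Summed collagen CPM fell from 323.4 and 289.8 to 239.1 and 216.0. Without WT replicate 1, WT replicate 2 or stabilized replicate 1, the 4 calls became 2, 1 and 2. That of Col25a1 stood in 0 of 4 fits without a library (-1.57 to -1.04) and was lost in DESeq2 (-1.31) and with the replicate block (-1.29), and that of Col17a1 stood in 1 of 4. Col6a2 lost the call without WT replicate 2 (0.90) and with RLE normalization, and Col8a1 without WT replicate 1 (0.98). In the same cortex input, endothelial markers went from 80.6 and 60.3 CPM in WT to 174.2 and 163.0 CPM in stabilized mice, fibroblast markers from 136.3 and 151.6 to 204.6 and 179.8 CPM, choroid plexus epithelial markers from 14.9 and 13.3 to 41.6 and 461.4 CPM and neuronal markers from 4560 and 4749 to 2921 and 3957 CPM. Their part was not tested.

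Where WT and stabilized GFP-negative pituitary cells were compared, none of 42 collagens was called in the anterior lobe (0.0357% higher and 0.0051% lower over all genes), with 3 at an unadjusted p under 0.05 in edgeR and 0 calls by DESeq2. None was called in the posterior lobe either (0.0867% and 0.0459%), with 2 at an unadjusted p under 0.05 and 1 call by DESeq2. The difference of responses between the lobes gave 0 calls of 35 in edgeR (0.0558% and 0.0726%), 4 genes at an unadjusted p under 0.05 and 3 calls by DESeq2. It gave 2 calls without either stabilized anterior library or WT posterior replicate 1 and 1 without WT posterior replicate 2. Between choroid plexus and cortex it gave 0 of 38 (0.864% and 1.28%), 7 genes at an unadjusted p under 0.05 and 1 call by DESeq2, with 4 calls without either WT cortex library and 1 without WT choroid plexus replicate 1.

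The ATAC-seq peaks show which collagen genes lay in accessible chromatin of the sorted ECs. Peaks were kept where the enrichment exceeded 2-fold with a -log10 q above 2, and a gene counted as having a promoter peak with a peak within 1 kb of a start. Between 8 and 10 of the 44 collagen genes had one in the 4 cerebellum libraries, 17 to 19 in the anterior pituitary and 12 to 16 in the posterior pituitary, or 18.2% to 43.2%, against 51.4% to 59.2% of all genes. Col1a1, Col4a1, Col4a2, Col23a1 and Col25a1 had a promoter peak in all 12 libraries. Col4a3, Col4a4, Col8a1 and Col15a1 had one in the 8 pituitary libraries and in none of the 4 of cerebellum. That of Col13a1 was found in the 4 anterior pituitary libraries and the 2 stabilized posterior ones. The libraries differed in their number of peaks, from 20634 in a WT posterior to 45040 in a WT anterior pituitary library.

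The type IV genes lie in head-to-head pairs, and a promoter peak between close starts counts for both genes. Col4a1 (chr8:11198423-11312826, minus strand) and Col4a2 (chr8:11312805-11449287, plus strand) share 22 bases at their starts. This stretch of GRCm38, chr8:11312801-11312830 read on the plus strand, is shown because both genes begin in it, with the bases covered by both in capitals.
Col4a1 and Col4a2 starts: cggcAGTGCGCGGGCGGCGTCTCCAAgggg
The nearest starts of coding transcripts of Col4a3 and Col4a4 are 127 bases apart, and those of Col4a5 and Col4a6 1309 bases.

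A peak was counted as gained where both stabilized libraries had it and neither WT library did, and as lost in the opposite case, within a gene or 10 kb of it. In the cerebellum 8 of 44 collagen genes had gained peaks and 2 lost ones (18.2% and 4.50%, against 15.8% and 1.70% of all genes). In the anterior pituitary 11 had gained and 7 lost peaks (25.0% and 15.9%, against 8.10% and 5.70%). With peaks kept above 4 in fold and -log10 q, both of these counts were lower, as given at the end. In the posterior pituitary 10 had gained and 0 had lost peaks (22.7% and 0%, against 19.5% and 1.2%). Peaks were counted over whole genes, and a longer gene holds more bases for a peak. The shares were not matched for gene length. The lost peak of Col4a3 and of Col4a4 in the anterior pituitary was the same shared peak. Col4a1 and Col4a2, whose RNA fell in the posterior pituitary, had 9 and 7 gained peaks there, some of them shared. Some of these were also peaks of WT anterior pituitary or cerebellum ECs. Over the genome this lobe had 7495 gained and 553 lost peaks. Its WT libraries held 21050 and 20634 peaks and its stabilized ones 28926 and 38583, and the part of this difference was not tested. Col14a1 had a gained peak in cerebellum and none in the pituitary lobes.

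Col18a1 (chr10:77052178-77166548, minus strand) gained peaks in both lobes at the same places. A first region, in an intron, was open in both stabilized anterior (fold enrichment 4.15 and 4.16) and both stabilized posterior pituitary libraries (6.69 and 5.70). A second intronic region had enrichments of 4.63 and 5.98 in the anterior and 8.93 and 5.33 in the posterior lobe, and was also a peak of both WT cerebellum libraries (3.88 and 4.30) and of no stabilized one. The last intronic region reached 5.90 and 5.67 in the anterior and 4.28 and 3.95 in the posterior lobe. At the upstream start of the gene, stabilized posterior pituitary libraries had a peak of 7.75 and 9.41, and both stabilized anterior pituitary libraries had one of 12.3 and 9.74, as did 1 WT anterior pituitary library (6.59) and 1 stabilized cerebellum library (3.41). The 201 bases of GRCm38 around the summit in the anterior pituitary are shown for the 3 intronic regions, because these regions opened with the RNA of the gene in both lobes. They are read on the plus strand, opposite to the gene, and capitals mark TTCAAAG.
Col18a1 region 1, chr10:77095024-77095224: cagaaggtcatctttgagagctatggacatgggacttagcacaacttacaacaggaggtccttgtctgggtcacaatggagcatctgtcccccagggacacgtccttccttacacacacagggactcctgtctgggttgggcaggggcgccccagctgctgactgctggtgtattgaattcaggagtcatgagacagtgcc
Col18a1 region 2, chr10:77124237-77124437: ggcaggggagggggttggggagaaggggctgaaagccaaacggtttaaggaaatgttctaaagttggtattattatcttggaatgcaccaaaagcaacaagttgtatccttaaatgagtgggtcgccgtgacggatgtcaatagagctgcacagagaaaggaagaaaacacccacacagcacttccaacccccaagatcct
Col18a1 region 3, chr10:77134554-77134754: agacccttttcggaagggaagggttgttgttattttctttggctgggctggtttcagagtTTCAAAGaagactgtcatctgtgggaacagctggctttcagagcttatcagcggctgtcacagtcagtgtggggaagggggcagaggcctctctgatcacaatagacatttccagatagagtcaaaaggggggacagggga

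**Figure D5:**
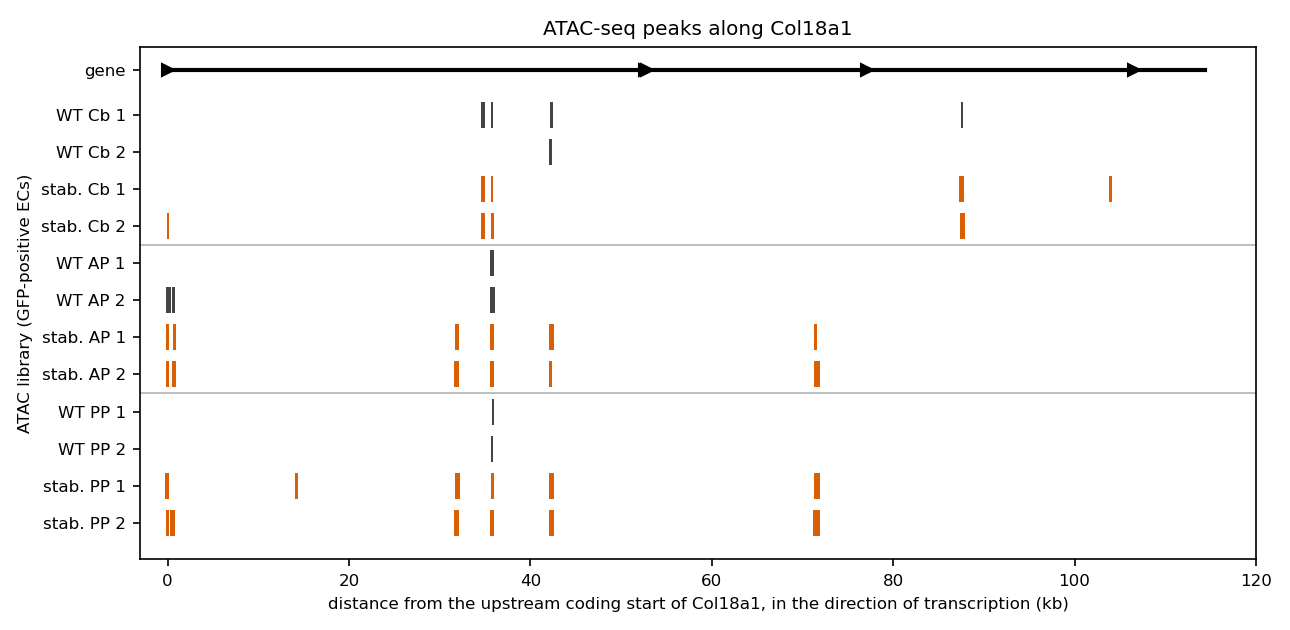
ATAC-seq peaks along Col18a1 in the 12 EC libraries, as bars from peak start to end in kb from the upstream coding start, with triangles at the annotated coding starts. Peaks near 31.7, 42.1 and 71.3 kb are present in the 4 stabilized pituitary libraries and absent from the 4 WT ones.

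The factors of the TCF and LEF family, which carry beta-catenin to DNA, bind a sequence that includes CAAAG. The letters ATCAAAG and TTCAAAG were searched on both strands within 100 bases of the summits. They occurred in 5 of 13 peaks gained at collagen genes in the anterior pituitary (38.5%, against 21.9% of the 2150 gained peaks on the chromosomes that carry collagen genes), in 2 of 11 in the cerebellum (18.2% against 13% of 3871) and in 4 of 32 in the posterior pituitary (12.5% against 14.8% of 5846). Of the peaks lost at collagen genes, 0 of 8 in the anterior pituitary and 0 of 2 in the cerebellum held them (against 3.9% of 1368 and 6.8% of 413 lost peaks on these chromosomes). A match describes the sequence and not binding. The stretches below show the match, in capitals and on the plus strand, in gained peaks at Col25a1, Col15a1 and Col4a2 and at Col16a1, where both lobes gained a peak with a match. A match on the minus strand reads CTTTGAA here.
Col25a1, cerebellum, chr3:130515655-130515695: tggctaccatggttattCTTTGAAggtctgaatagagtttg
Col25a1, posterior pituitary, chr3:130172862-130172902: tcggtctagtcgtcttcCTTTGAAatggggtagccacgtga
Col15a1, anterior pituitary, chr4:47261292-47261332: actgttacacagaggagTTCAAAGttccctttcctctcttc
Col16a1, anterior pituitary, chr4:130102395-130102435: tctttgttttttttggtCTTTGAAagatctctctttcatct
Col16a1, posterior pituitary, chr4:130075243-130075283: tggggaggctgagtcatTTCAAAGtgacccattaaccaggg
Col4a2, cerebellum, chr8:11334449-11334489: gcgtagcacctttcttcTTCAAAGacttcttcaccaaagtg
The RNA of Col25a1 and Col15a1 passed no threshold in the lobe where the peak was gained. In cerebellum, where Col25a1 also gained a peak with a match, its RNA was called lower, from 14 and 25 counts in WT to 0 in stabilized ECs (edgeR, adjusted p = 0.0311). Col16a1 was under 10 TPM in all EC groups. Of the promoters in RefSeq (GRCm38.p6, 250 bases before to 50 after the start), 38 belonged to 35 collagen genes, and 5 of them held the letters (13.2%, against 8.70% of 32851), those of Col6a2, Col9a1, Col9a2, Col13a1 and Col15a1.

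Genes that fold, cross-link, bind and degrade collagens were followed as lists. Of 4 basement membrane partners tested, 2 were called higher in WT ECs than in GFP-negative cells of cerebellum, 3 in the anterior and 4 in the posterior pituitary, where 4.46%, 5.46% and 7.07% of all genes were. Hspg2, the core protein of perlecan, measured 1147 and 1618 CPM in WT anterior pituitary ECs against 49.2 and 30.2 CPM in GFP-negative cells (5.12 ± 0.75, adjusted p = 0.000155), and 2085 and 3333 CPM against 23.6 and 7.05 CPM in the posterior lobe (7.46 ± 0.83). Sparc, a collagen-binding chaperone, was higher in ECs by 5.95 ± 0.39 and 6.47 ± 0.40. The receptor chain Itga1 stood at 513.1 and 505.3 CPM in WT cerebellum ECs, 130.0 and 120.6 CPM in the anterior and 516.4 and 917.9 CPM in the posterior pituitary. In stabilized posterior pituitary ECs it fell by 1.62 ± 0.29 to 212.2 and 262.8 CPM (adjusted p = 0.0154), the 1 called of 8 receptors tested. Colgalt2, which adds galactose to collagen, fell by 1.46 ± 0.26, 1 of 19 folding genes, where 0.541% of all genes were called lower. Over the fits without a library, Itga1 ranged from -1.95 to -1.15 and Colgalt2 from -1.51 to -1.40. Neither call stood in all of these fits. Endothelial markers were 14610 and 17310 CPM in WT and 7106 and 8502 CPM in stabilized posterior pituitary ECs, and their part was not tested.

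Of the proteases and their inhibitors 2 of 10 rose in stabilized posterior pituitary ECs, where 1.25% of all genes were called higher. Reck, a membrane inhibitor of metalloproteinases that also serves Wnt7 signaling, went from 32.7 and 40.4 CPM to 140.7 and 196.4 CPM (2.18 ± 0.29, adjusted p = 0.00214), and Timp2 from 28.2 and 20.7 CPM to 100.4 and 126.2 CPM (2.19 ± 0.39, adjusted p = 0.0148). Reck rose as well in the anterior lobe (9.01 and 8.14 to 34.8 and 37.1 CPM, 2.05 ± 0.29, adjusted p = 0.00582, and 2.02 without the library of conflicting labels) and in choroid plexus bound RNA (19.9 and 15.5 to 71.2 and 83.0 CPM, 2.03 ± 0.33, adjusted p = 0.0258), whose endothelial markers differed as given for Col18a1. In cortex bound RNA, Hspg2 (1.84 ± 0.23), Nid2 (1.21 ± 0.29) and the folding factor Ppib (1.38 ± 0.25) rose, and Bgn fell by 1.59 ± 0.34, in the libraries whose endothelial and neuronal markers differed as given for Col4a2. For Hspg2 the response of choroid plexus was smaller than that of cortex by 1.92 ± 0.32 on the log2 scale (adjusted p = 0.0224).

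Other listed genes were called between cell fractions, given here with the log2 fold change in parentheses. Timp3, an inhibitor of metalloproteinases, stood at 4125 and 4616 CPM in WT anterior pituitary ECs against 202.3 and 154 CPM in GFP-negative cells (4.62), and was above cerebellum ECs by 2.12 in the anterior and 1.70 in the posterior lobe. Tll1 was higher in the ECs of both lobes, at 22.2 and 39.2 CPM against 0 and 0.0552 CPM in the anterior and 13.1 and 11.8 CPM against 0.0275 and 0.0946 CPM in the posterior one. Itga1 was higher in ECs of cerebellum (4.49) and posterior pituitary (10.13). Nid2 (5.94) and Colgalt2, at 220 and 208 CPM against 0 and 0.0473 CPM, were higher in ECs of the posterior lobe. The difference of Nid2 ranged from 5.10 to 11.65 in fits without a library. The collagen receptor Ddr1 was lower in ECs of cerebellum (-5.02) and anterior pituitary (-6.47), as were Timp4 (-6.54), Lum, P4ha3 and Loxl1 in cerebellum and P3h3 (-7.45) in the anterior pituitary. Without a library Ddr1 ranged from -6.97 to -4.10 in cerebellum and from -13.53 to -5.34 in the anterior pituitary. In bound against input RNA of cortex, Lair1 (3.64), P3h2 (3.61), Itga1 (3.54), Reck (3.28) and Crtap (2.70) were enriched and Loxl1 was depleted, from 1.92 and 1.17 CPM to 0. In choroid plexus Itga1 (2.73), Colgalt2 (3.92) and Lair1 (2.20) were enriched, and Lox (-2.77), Lum (-2.36) and P4ha3 were depleted. Lair1 ranged from 1.27 to 2.59 there in fits without a library. Microglia and macrophage markers also rose from input to bound RNA in cortex and choroid plexus, as given for the collagens. Their part in these genes was not tested.

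Between beds, anterior pituitary ECs were below those of cerebellum in Reck (-3.30), Agrn (-2.20), Itga1 (-2.02) and Colgalt2 (-1.27) and above them in Hspg2 (2.03). Posterior pituitary ECs were above cerebellum in Pxdn (3.27), Hspg2 (3.01) and Colgalt2 (1.10) and below it in Reck (-1.2). This difference of Pxdn ranged from 2.52 to 5.01 in fits without a library. Anterior ECs were below posterior ones in Itga1 (-2.52), Colgalt2 (-2.37) and Reck (-2.1). Bound RNA of choroid plexus exceeded that of cortex in the cross-linking enzymes Loxl1, at 14.7 and 14.2 CPM against 0, and Loxl2, at 26.6 and 16.4 CPM against 3 counts in all. It was also higher in Pcolce (6.47), Itga10 (6.47) and Lum (4.49), and lower in Timp4 (-4.74). Over the fits without a library, Pcolce ranged from 5.68 to 8.28, Itga10 from 5.59 to 10.28 and Lum from 3.56 to 8.88. Stabilized cerebellum ECs were lower in Dcn, a proteoglycan that binds collagen fibrils, at 0 counts against 9.65 and 1.22 CPM in WT, and in Pxdn (-4.96), in the libraries whose fibroblast markers stood at 3.5 and 8.01 CPM against 45.8 and 52.8 CPM in WT. Pxdn was at -3.22 without WT replicate 2 and -7.51 without stabilized replicate 2. The part of the markers was not tested. Loxl1 went to 0 counts in stabilized cerebellum GFP-negative cells from 8.83 and 5.37 CPM, and from 0 to 0.852 and 0.431 CPM in cortex bound RNA. Cortex input rose in Loxl2 (2.42), Ppib (2.08), P3h1 (1.92), Adamts2 (1.3) and Dcn (1.10) and fell in P4ha1 (-1.13). Of the 71 calls named from the pathway lists, 44 stood in every fit without a library, 27 were lost in at least 1 and 4 of these in all, and none changed sign. Lost in all were Reck and Colgalt2 between posterior pituitary and cerebellum and P4ha3 and Lum in bound against input RNA of choroid plexus. Kept in 1 of 4 such fits were Timp2 in stabilized posterior pituitary ECs, Reck in stabilized choroid plexus bound RNA, Bgn and Nid2 in stabilized cortex bound RNA and P4ha3 in cerebellum ECs.

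The 30 collagen genes named so far as called do not include 14 members. Col2a1, Col5a2, Col5a3, Col6a4, Col6a5, Col9a1, Col10a1, Col12a1, Col16a1, Col19a1, Col22a1, Col24a1, Col26a1 and Col28a1 were called in none of the 21 comparisons and stayed under 10 TPM in every EC group. Among them Col12a1 stood at 7.59 and 13.4 CPM in WT and 31.6 and 41.5 CPM in stabilized anterior pituitary ECs (1.79 ± 1.24, adjusted p = 0.747). Col10a1, a collagen of growth cartilage, had 0 CPM in all 24 sorted libraries and entered no test. Of the 44 genes, 42 passed the filter on low counts over the sorted libraries, 35 among sorted ECs, 40 over the RiboTag libraries and 38 in bound RNA. The 9 that did not pass among sorted ECs were Col6a4, Col6a5, Col8a2, Col9a1, Col10a1, Col17a1, Col19a1, Col22a1 and Col24a1.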

How the data were processed

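RNA was sequenced from 40 libraries and accessible chromatin from 12. The authors quantified transcripts with Salmon 0.10.2 against Ensembl 92 correcting for fragment sequence, GC content and position, and deposited an estimated count (expected count) and a TPM per transcript. Libraries were made with NuGEN Ovation kits, which amplify small RNA inputs. For ATAC-seq the authors deposited MACS2 peaks per library on mm10 (GRCm38), with a fold enrichment (ratio) and a -log10 q.

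Here both values were summed per gene with GENCODE M21 (130338 of 130740 transcripts matched) and the counts rounded. Tests used edgeR 4.0.16 (quasi-likelihood, TMM, filterByExpr; R 4.3.3) within 6 sets of libraries, with Benjamini-Hochberg adjustment over all genes, which numbered 21343 for ECs against GFP-negative cells, 17915 for sorted ECs, 19612 for GFP-negative cells, 18241 for bound against input, 16775 for bound and 16085 for input RNA. Called means an adjusted p under 0.05 and at least 2-fold. The authors tested with EBSeq, which was not used here. CPM is normalised within the sorted or the RiboTag libraries, and levels of the 2 sets were not compared. Named are all members called in a comparison, members of at least 10 TPM in an EC group, and, of the pathway lists, up to 6 called genes a comparison with the largest change. The members and lists were chosen with earlier results of these data known. A count of 0 was taken to allow 3 counts over the group, and 95% intervals of count ratios cover counting error only. The study's methods put both lobes of a replicate in the same pooled mice, while the deviations of equally numbered anterior and posterior EC libraries correlated at -0.013 in WT and 0.011 in stabilized mice. Alternatives were DESeq2 1.42.0, RLE normalization, no filter, a replicate block, a gene length offset, a stricter peak threshold and leaving out each library. In simulated counts for posterior pituitary ECs (17164 genes), 0 of 50 genes raised 2-fold, 10 of 50 raised 4-fold, 21 of 50 raised 8-fold and 4 of 50 lowered 4-fold were called. For choroid plexus bound RNA (15821 genes) the same changes gave 0, 23, 41 and 15 of 50.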

Additional observations from a re-analysis of the deposited data

Results flagged for a closer look

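In sorted ECs the effect of stabilization on 7 collagens had opposite directions in cerebellum and a pituitary lobe, both stabilized libraries lying on one side of WT in one bed and on the opposite side in the other (among collagens tested in both beds, with at least 50 counts in a library). These differences were not tested. Between anterior pituitary and cerebellum the fitted log2 fold changes differed by 14.7 for Col14a1 (12.64 and -2.06), 15.01 for Col4a5 (5.46 and -9.55), 9.77 for Col20a1 (4.6 and -5.17), 8.82 for Col1a1 (3.12 and -5.71), 8.17 for Col12a1 (1.79 and -6.38), 4.69 for Col1a2 (1.28 and -3.41) and 1.22 for Col4a3 (0.42 and -0.80). Between posterior pituitary and cerebellum they differed by 14.86 for Col14a1 (12.79 and -2.06), 8.79 for Col12a1 (2.41 and -6.38) and 6.41 for Col20a1 (1.23 and -5.17). Of these effects, those of Col14a1 in the pituitary lobes were called. Fitted values against libraries with 0 counts, as for Col14a1 and Col4a5, depend on the prior count and measure no fold.

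The same rule found Col1a1 between the lobes (posterior minus anterior -6.57, from -3.45 and 3.12, adjusted p of the difference 0.553 in edgeR) and Col9a3 between choroid plexus and cortex bound RNA (-1.63, from -0.35 and 1.28, adjusted p 0.102), and neither difference passed the threshold.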

How the results depend on the processing

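The counts of called collagens moved as follows. DESeq2 in place of edgeR gave 16 calls in place of 8 for ECs against GFP-negative cells in cerebellum, 16 in place of 7 in posterior pituitary, 8 in place of 5 for WT ECs of posterior pituitary against cerebellum, 4 in place of 1 between the lobes, 11 in place of 1 for stabilized cerebellum ECs, 13 in place of 5 for cerebellum GFP-negative cells, 9 in place of 5 for cortex bound RNA and 2 in place of 1 for choroid plexus input. In place of 0 it gave 3 for the difference between lobes, 1 for posterior pituitary GFP-negative cells, 2 for choroid plexus bound RNA and 1 for choroid plexus minus cortex. Without the filter on low counts the same 12 comparisons gave 17, 16, 8, 5, 7, 10, 9, 4, 4, 1, 3 and 5 calls, and anterior pituitary GFP-negative cells 3. RLE normalization gave 3 for cerebellum GFP-negative cells. The gene length offset gave 3 and 6 for ECs against GFP-negative cells in cerebellum and anterior pituitary, 3 for posterior pituitary against cerebellum, 3 for cerebellum GFP-negative cells, 5 for choroid plexus bound against input, 1 for cortex bound RNA, 9 for cortex input and 0 for choroid plexus input. It also turned Col27a1 in cortex bound RNA from 1.47 to -0.16. The cause was not tested.

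Leaving out 1 library at a time gave 3 to 8, 9 to 11 and 4 to 8 calls for ECs against GFP-negative cells in cerebellum, anterior and posterior pituitary, 6 to 6, 5 to 9 and 1 to 4 between WT beds, 1 to 5, 2 to 2 and 2 to 5 for stabilized ECs, 0 to 2 for the lobes' difference, 2 to 11, 0 to 0 and 0 to 0 for GFP-negative cells, 7 to 19 and 5 to 6 for bound against input, 19 to 22 between choroid plexus and cortex, 1 to 8 and 0 to 1 for stabilized bound RNA, 0 to 4 for their difference, and 1 to 4 and 0 to 0 for input. Of 408 such values of called genes 304 kept the call and none changed sign.

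With the replicate number as a block, stabilized cerebellum ECs gave 2 calls in place of 1 and choroid plexus input 0 in place of 1, and the other counts stayed within 1.5 times. Lobes of one genotype were dissected from the same pooled mice by the study's methods. With each pool as a block over both lobes, an alternative chosen after seeing the data that takes equal numbers as one pool, 2 genes were called in place of 1 between WT lobes and 0, as before, for the difference of their responses. Apart from these and fractions of one preparation, no shared source of equal numbers is stated, and over the 94 pairs of groups within a set 1 correlation of deviations was over 0.1 and 1 under -0.1. For fractions of the same preparation, a replicate block within preparation gave 6, 10 and 7 calls for ECs against GFP-negative cells in cerebellum, anterior and posterior pituitary and 14 and 6 for bound against input in cortex and choroid plexus.

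With peaks kept above 4 in fold and -log10 q, promoter peaks fell to 5 and 3 collagen genes in WT cerebellum (from 8 and 8), 6 in stabilized cerebellum replicate 2 (from 10), 5 in WT posterior replicate 1 (from 12) and 9 in stabilized posterior replicate 1 (from 14), and anterior pituitary gained and lost peaks to 7 and 1 genes (from 11 and 7).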
